A study of Homo sapiens with 6 samples.

Results

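The genes of insulin-like growth factor (IGF) and insulin signalling were examined in Hep-G2 cells after knockdown of CLGN. Their 10 members, chosen by gene symbol from the 58735 genes of the expression table, were the ligand IGF2, the imprinted RNA H19 that lies beside it, the receptors IGF1R, INSR and IGF2R, the adaptors IRS1 and IRS2, and the binding proteins IGFBP1, IGFBP2 and IGFBP4. IGF2 appears in the table under 2 gene identifiers, so the 10 members took 11 rows. Hep-G2 is an established human liver cancer line, labelled as hepatocytes from hepatocellular carcinoma. The control group (sh-NC, genotype WT, treatment shcontrol, 3 libraries) carried a negative control hairpin, and the knockdown group (sh-CLGN, genotype CLGN knock down, treatment shCLGN, 3 libraries) a hairpin against CLGN, which encodes the endoplasmic reticulum chaperone calmegin. Both hairpins came by lentivirus with puromycin selection, both groups bear the batch label 0DAY, and cells were kept in high-glucose medium with fetal bovine serum. With 1 hairpin per group, effects of the hairpin itself or of the selected culture cannot be told apart from those of losing CLGN, nor can fewer cells of a kind from less RNA per cell. The labels do not say that the libraries came from separate cultures, so p-values measure only the spread between these libraries.

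IGF2 is a growth factor made abundantly by fetal liver and by many liver tumours. It signals through IGF1R and through INSR, the receptor of insulin, both tyrosine kinases that phosphorylate IRS1 and IRS2, and these dock phosphoinositide 3-kinase, which activates AKT. IGF2R, the cation-independent mannose 6-phosphate receptor, carries IGF2 to lysosomes for breakdown and sorts lysosomal enzymes, and does not act as a growth receptor. The IGFBP proteins hold IGFs outside the cell, and IGFBP1 is a classic liver gene that insulin represses. H19 is a maternally expressed non-coding RNA that shares enhancers with the paternally expressed IGF2.

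Values of single libraries are given in the order of replicates 1, 2 and 3. Libraries held 14955816 to 16244639 reads recovered from the values, which are FPKM (fragments per kilobase of gene, scaled to library size). The groups overlapped in these read totals but not in the library sizes that the FPKM imply. Those sizes were at most 1.55e+07 among controls and at least 1.61e+07 after knockdown. Divided by the read totals, they gave 0.933, 0.940 and 0.953 for the controls, against 1.08, 1.08 and 1.07 with the CLGN hairpin. The origin of this offset was not tested. CLGN itself fell to 37.8% of its control level, from a mean of 23.8 to 8.98 FPKM, without overlap. All 10 hepatocyte markers were measured in both groups at a summed 7411 to 7622 FPKM in sh-NC and 7621 to 8096 FPKM in sh-CLGN. In the limma test described below, 4 of the 10 rose and 5 fell, where 65.8% of all tested genes passed. AFP rose from a mean of 2670 to 3782 FPKM, while ALB fell from 2007 to 1076 FPKM and TF from 181 to 58.4 FPKM. Of 9 fibroblast and stellate cell markers, 5 passed the filter, and the summed level went from 7.19 to 8.61 FPKM in sh-NC to 48.6 to 50.01 FPKM in sh-CLGN. COL1A2 made up most of that sum, while COL1A1, COL3A1 and LUM passed the filter only through their sh-CLGN libraries, so their being higher was fixed by the filter. DCN, THY1 and ACTA2 stayed under 1 FPKM in every library, and the part of this shift in the results below was not tested. The summed level of 5 endothelial markers was 3.34 to 3.70 FPKM in sh-NC against 2.45 to 2.69 FPKM in sh-CLGN, and that of 5 leukocyte markers 1.20 to 1.48 against 0.471 to 0.780 FPKM. In each of these lists 1 marker passed the filter and the other 4 stayed under 1 FPKM everywhere, PTPRC among them. The leukocyte marker that passed, CD14, did so only through the controls. Library sh-NC replicate 3 stood apart from the other controls by GC content. Its deviation from them had a Spearman's rho of -0.64 with transcript GC content over 13068 tested genes, a relation across genes and not across replicates, against -0.22 to 0.46 in the other libraries. The 4 members with the highest GC content, IGFBP2, IRS2, IGF2 and IGFBP4 (57.1% to 62.5%), all had their lowest control value in this library. So did IRS1, at a GC content of 50.7%. In sh-CLGN, replicate 3 held the highest knockdown value of 8 of the 9 tested members. The difference between the groups had a Spearman's rho of -0.32 with GC content across genes.

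A pair of sequence features is shown for members that fell. The first is the set of 3′ untranslated region (UTR) sites that match the start of the sh-CLGN hairpin's guide strand, taken as the exact complement of the target given in the study's methods, since small RNAs pair with transcripts mainly through bases 2 to 8. ACCACAA pairs with guide bases 1 to 7, TACCACA with bases 2 to 8 and ATACCAC with bases 3 to 9, and these heptamers overlap each other. In the longest annotated 3′ UTR of each member, only the transcript strand was searched. IRS1, IGF2R and IGF1R held 4 sites in all, printed here with 8 bases on either side and the matching bases in capitals, and the 3′ UTRs of IGF2, INSR, IRS2, IGFBP1, IGFBP2 and IGFBP4 held none.
IRS1: aatacaatATACCACAAagtcggaa
IGF2R: ttctcatgATACCACctttactg
IGF2R: ccatcagaACCACAAtatgtggg
IGF1R: attcaaacACCACAAcagcagta
The IRS1 site begins at base 3152 of a 4955-base 3′ UTR and matches all 3 heptamers at once, so it pairs with guide bases 1 to 9. The IGF2R sites begin at bases 932 and 4473 of 6420, and the IGF1R site at base 1061 of 7088. All 3 heptamers were found in the 3′ UTRs of 1.67% of the 10909 tested genes with a 3′ UTR, and at least 1 of them in 21.9%. The median difference in log2(FPKM + 1) was -0.19 in genes with ATACCAC and -0.12 in genes without it. For TACCACA these medians were -0.13 and -0.12, and for ACCACAA -0.13 and -0.12. Genes with all 3 heptamers had a median of -0.21 against -0.12 in the rest, and genes with at least 1 of them -0.14 against -0.12. The sites describe the transcripts, and whether they had a part in the changes of these 3 genes was not tested.

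The second is the E-box CACGTG, the palindrome read by MYC and by the lysosomal regulators TFEB and TFE3. RefSeq promoters on GRCh38.p14, from 250 bases before to 50 after the RefSeq start, were found for 8 of the 10 members. IGF2R and IRS1 alone among those 8 held the motif. The IGF2R promoter is shown because it carries the motif 3 times, in capitals, in the member with the smallest adjusted p among those that fell. It spans chr6:159968832-159969131 on the plus strand.
IGF2R: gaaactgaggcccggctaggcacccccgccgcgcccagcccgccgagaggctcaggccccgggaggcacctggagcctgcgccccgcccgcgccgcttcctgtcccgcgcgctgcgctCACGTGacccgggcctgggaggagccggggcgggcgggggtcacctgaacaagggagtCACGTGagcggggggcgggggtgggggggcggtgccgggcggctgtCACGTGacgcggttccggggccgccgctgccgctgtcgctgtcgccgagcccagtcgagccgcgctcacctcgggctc
The motifs start at bases -132, -74 and -28 relative to the RefSeq start, which differs from the GENCODE gene position printed below. The IRS1 promoter holds 1 copy, which starts 35 bases after its RefSeq start. That IRS1 window, 226799771 to 226800070 on the minus strand, lies wholly before the GENCODE start at 226799759. CACGTG reads the same on both strands. It was present in 7.26% of 35116 promoters of this length and 3 or more times in 33 of them (0.0940%). Counted per gene, it was present for 8.77% of 27305 genes and for 12.8% of the 9073 tested genes with a promoter. Tested genes with CACGTG had a median difference of -0.11 and those without it -0.12. Whether the motif had a part in the fall of IGF2R or IRS1 was not tested, and no statement on the binding of a factor follows from these letters.

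To ask how the members responded to CLGN knockdown, all 6 libraries were compared with limma on log2(FPKM + 1), which understates the change of low genes. Of the 9 members that passed the filter of 1 FPKM in 3 libraries, 1 rose and 5 fell with the adjusted p under 0.05, and 3 were not distinguishable from their replicate spread. That is 66.7% of the members tested against 65.8% of all 13074 tested genes (26.7% higher and 39.0% lower), so the share of members called was near the background. IGF2 fell and IGFBP2 rose past the further threshold of 1 on the log2 scale, which 6.28% of tested genes passed (3.09% higher and 3.19% lower). The groups did not overlap in 7 of the 9, against 70.2% of all tested genes, and the median difference was -0.27 for the members and -0.08 for all tested genes. The balance of directions moved with the scaling. After correction for GC content 4 members were called higher and 2 lower, with scaling by read totals 3 and 2, with TPM rescaling 3 and 3, and without sh-NC replicate 3 they were 2 and 4. Over all tested genes the calls turned too, from 40.7% higher to 48.9% after GC correction, 59.2% with read totals and 52.2% with TPM rescaling, against 40.9% without that library. Scaling by read totals, which replaces library sizes that did not overlap between the groups, moved the median of all tested genes by 0.16. TPM rescaling moved it by 0.11. Median-ratio size factors estimated from the FPKM moved it by 0.00014 and called 8598 genes, as did the main fit. The FPKM as given were thus already close to a median-ratio scaling. The falls of IGF2 and IGF2R and the rise of IGFBP2 passed under each of the 17 alternatives tried.

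**Figure D1:**
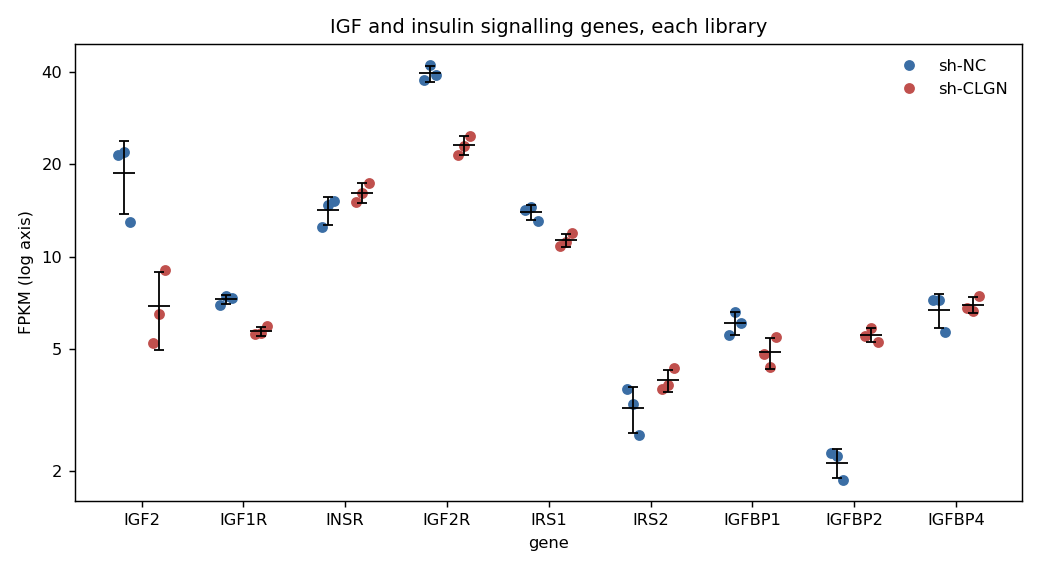
Expression of the 9 tested members in every library, in FPKM on a log axis, with blue points for sh-NC, red points for sh-CLGN and black bars for the mean and SD (n = 3). IGF2R was the highest member in both groups (39.6 and 23.1 FPKM), IGF2 fell from a mean of 18.8 to 6.92 FPKM, and IGFBP2 rose from 2.13 to 5.55 FPKM.

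The ligand IGF2 showed the largest fall among the members. IGF2 (ENSG00000167244; chromosome 11, 2129112 to 2149603, minus strand, GRCh38) was at 21.5, 21.9 and 13.0 FPKM across the controls and 5.22, 6.48 and 9.06 FPKM across the knockdown libraries. All 3 knockdown libraries lay under the lowest control, which was replicate 3. The mean went from 18.8 ± 5.03 to 6.92 ± 1.96 FPKM (SD, n = 3), 36.8% of the control level, from 618 to 2227 reads per library. The difference was -1.31 (SE 0.23, limma adjusted p = 0.00126). Without sh-NC replicate 3 it came to -1.55, and after GC correction to -1.06. Its spread was the widest of the 9 members in either group, also relative to the mean.

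How much of IGF2's RNA these values cover is limited by the annotation. In GENCODE 29, 75.01% of the 6979 exon bases of this IGF2 entry are exons of other genes too, of which 5144 lie on the same strand and a further 91 only on the other. The partners are a longer entry also named IGF2 (ENSG00000284779; 2129112 to 2158658), the readthrough gene INS-IGF2, the RNA AC132217.1 and the antisense gene IGF2-AS. The longer IGF2 entry, with 90.0% of its exon bases shared, and INS-IGF2, with all 1826 shared, were listed at 0 in every library. How reads that overlap several genes were counted is not given in the sources used here, so reads from the shared exons may be missing. IGF2's level is thus uncertain beside those of other genes, and would be too low if such reads were left out. The same rule would have held in all 6 libraries, but whether the shared and the 1744 unshared exon bases changed alike was not tested. IGF2-AS, on the opposite strand, averaged 2.42 ± 0.372 FPKM among controls and 2.38 ± 0.0326 FPKM after knockdown (SD, n = 3), a difference of -0.01 (SE 0.092, limma adjusted p = 0.937). MIR483, a microRNA gene within IGF2, was listed at 0 throughout.

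H19 (ENSG00000130600; chromosome 11, 1995176 to 2001470, minus strand) was listed at 0 in all 6 libraries, as was MIR675, the microRNA gene it hosts. Of its 2897 exon bases, 2684 are shared with no other gene. A count of 0 allows up to 3 reads, which for H19 is 0.0610 to 0.0742 FPKM per library and covers counting error only. No difference in H19 was therefore detectable, and no ratio of IGF2 to H19 could be formed. Among the other genes of the imprinted 11p15.5 region, 7 of 17 passed the filter, of which 0 rose and 3 fell by limma's adjusted p, 42.9% called against 65.8% of all tested genes, with a median difference of -0.10. CD81, a tetraspanin of the cell surface, fell from 14.6 ± 1.47 to 8.48 ± 0.578 FPKM (SD, n = 3). MRPL23, a mitochondrial ribosomal protein, fell by 0.48 on the log2 scale and the transporter SLC22A18 by 0.25, with overlapping libraries in both, and the sign for SLC22A18 turned after GC correction (0.029, adjusted p = 0.753). The difference for NAP1L4, a histone chaperone, was -0.10 (limma adjusted p = 0.0994), and it turned to 0.18 with quantile normalization (adjusted p = 0.0105).

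The genes whose values over the 6 libraries were most like those of IGF2 were POLR2A, RAPGEF1 and C8orf82, with Pearson's r of log2(FPKM + 1) of 0.9983, 0.9980 and 0.9979. These are the highest of 13074 correlations over 6 libraries in 2 groups, and all 3 genes fell far less than IGF2, by 0.54, 0.36 and 0.53 on the log2 scale. They are given as a description only.

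Among the receptors, IGF2R fell, IGF1R fell to a lesser degree and INSR did not pass. IGF2R (ENSG00000197081; chromosome 6, 159969099 to 160113507, plus strand) was at 37.6, 42.2 and 38.9 FPKM across the controls and 21.5, 23.0 and 24.7 FPKM across the knockdown libraries. No control library came near the knockdown libraries. The fall to 58.3% of control rested on 6502 to 10987 reads per library, the most of any member, with a difference of -0.75 (SE 0.067, limma adjusted p = 4.23e-05) that ranged from -0.80 to -0.48 over the alternatives. IGF2R holds the E-boxes and 2 of the hairpin-matched sites printed above.

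IGF1R (ENSG00000140443; chromosome 15, 98648539 to 98964530, plus strand) was at 6.96, 7.45 and 7.36 FPKM for the controls and 5.60, 5.62 and 5.94 FPKM with the CLGN hairpin. The groups were separate, at a difference of -0.30 (SE 0.056, limma adjusted p = 0.00206). The call was lost with scaling by read totals (-0.13, adjusted p = 0.0829) and after GC correction (-0.11, adjusted p = 0.0654). INSR (ENSG00000171105; chromosome 19, 7112255 to 7294034, minus strand) was at 12.5, 14.7 and 15.2 FPKM for the controls and 15.02, 16.1 and 17.4 FPKM with the CLGN hairpin. Its groups overlapped and the difference of 0.18 (SE 0.084) did not pass (limma adjusted p = 0.0902), while 7 of the 17 alternatives called it higher, quantile normalization among them (0.38, adjusted p = 0.00450). Without sh-NC replicate 1, its lowest library, the difference shrank to 0.0998 (adjusted p = 0.263).

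**Figure D2:**
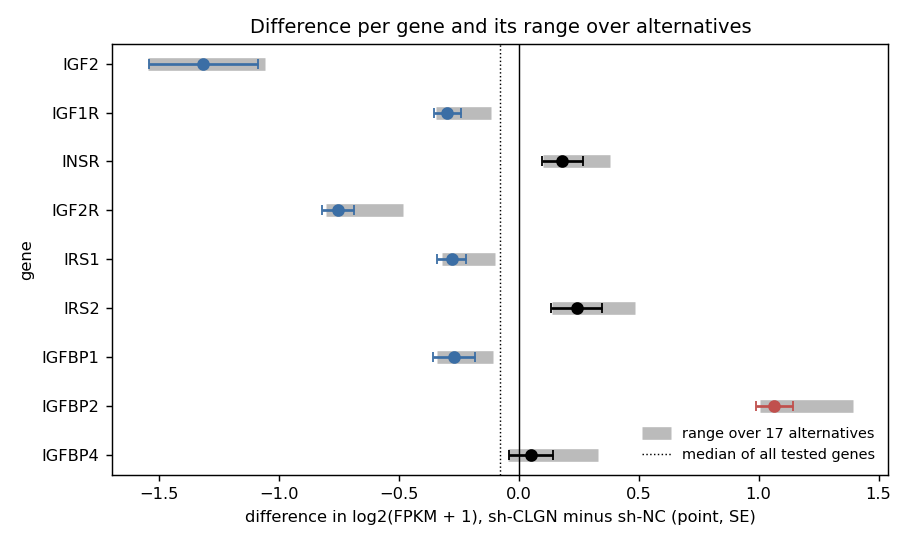
Difference in log2(FPKM + 1) between sh-CLGN and sh-NC for each tested member, as a point with its SE, blue where it fell, red where it rose and black where it did not pass at adjusted p. Grey bars give the range over 17 alternatives and the dotted line the median of all tested genes (-0.08), with IGF2 at -1.31 and IGFBP2 at 1.07 as the extremes.

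Both adaptors are large docking proteins with many tyrosine sites, and of the pair IRS1 fell while IRS2 did not pass. IRS1 (ENSG00000169047; chromosome 2, 226731317 to 226799759, minus strand) was at 14.2, 14.5 and 13.1 FPKM across the controls and 10.8, 11.1 and 11.9 FPKM across the knockdown libraries. It fell to 81.1% of control without overlap (difference -0.28, SE 0.061, limma adjusted p = 0.00432). That call was lost with quantile normalization (-0.11, adjusted p = 0.122), read totals (-0.10, adjusted p = 0.168), TPM rescaling (-0.17, adjusted p = 0.0555) and GC correction (-0.11, adjusted p = 0.0775). IRS2 (ENSG00000185950; chromosome 13, 109752698 to 109786568, minus strand) was at 3.71, 3.30 and 2.63 FPKM for the controls and 3.71, 3.83 and 4.33 FPKM with the CLGN hairpin. The highest control and the lowest knockdown library were equal to 3 digits. Of its 8138 exon bases, 115 overlap a gene on the other strand. Its difference of 0.24 (SE 0.105) did not pass (limma adjusted p = 0.0744). It was called higher with voom (0.32, adjusted p = 0.0148), read totals, TPM rescaling and GC correction, and without sh-NC replicate 1 (0.33, adjusted p = 0.0298). Without sh-NC replicate 3 the difference shrank to 0.14 (adjusted p = 0.178).

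Of the binding proteins, IGFBP2 rose, IGFBP1 fell by a narrow margin and IGFBP4 did not pass. IGFBP2 (ENSG00000115457; chromosome 2, 216632828 to 216664436, plus strand), which binds IGF2 with high affinity and is a fetal liver product, was at 2.29, 2.24 and 1.87 FPKM across the controls and 5.53, 5.85 and 5.28 FPKM across the knockdown libraries. Every knockdown library lay far above every control, and the spread within each group was small. The ratio of means was 2.60, from 138 to 457 reads per library, with a difference of 1.07 (SE 0.077, limma adjusted p = 1.62e-05).

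IGFBP1 (ENSG00000146678; chromosome 7, 45888357 to 45893668, plus strand) was at 5.55, 6.59 and 6.10 FPKM for the controls and 4.81, 4.35 and 5.47 FPKM with the CLGN hairpin, from only 118 to 159 reads per library. The groups came within 0.1 FPKM of each other without overlap, and the difference of -0.27 (SE 0.088) passed narrowly (limma adjusted p = 0.0269). Leaving out sh-NC replicate 2 or 3 or sh-CLGN replicate 1 or 2 ended the call, at adjusted p of 0.0863, 0.0552, 0.0698 and 0.0970, as did 4 other alternatives, read totals among them (-0.11, adjusted p = 0.323). IGFBP4 (ENSG00000141753; chromosome 17, 40443461 to 40457731, plus strand) was at 7.20, 7.22 and 5.70 FPKM for the controls and 6.81, 6.65 and 7.43 FPKM with the CLGN hairpin. These ranges overlapped, with a difference of 0.05 (SE 0.091, limma adjusted p = 0.633). It turned to -0.045 without sh-NC replicate 3 and was called higher after GC correction (0.33, adjusted p = 0.000503).

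The order of the members by level, in FPKM and so per length, changed with IGF2 and IGFBP2. In sh-NC the order from the highest was IGF2R, IGF2, INSR, IRS1, IGF1R, IGFBP4, IGFBP1, IRS2 and IGFBP2. The libraries of neighbours overlapped for IGF2 and INSR, INSR and IRS1, IGF1R and IGFBP4, and IGFBP4 and IGFBP1. In sh-CLGN it was IGF2R, INSR, IRS1, IGFBP4, IGF2, IGF1R, IGFBP2, IGFBP1 and IRS2, with overlap between all neighbours from IGFBP4 to IGFBP1. IGF2 thus went from position 2 to position 5, with the limit on its level given above, and IGFBP2 from position 9 to position 7.

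To compare members free of library scaling, ratios of FPKM were formed within each library. Of the 7 ratios planned, 6 had a value, and in all 6 the groups did not overlap. For single genes, 70.2% of all tested genes did not overlap, and no such share was computed for ratios of other gene pairs. In the two-sided exact permutation test each gave p = 0.1, the smallest that 3 against 3 libraries allow, and adjusted p = 0.1 over the 6. These 6 share genes and are not independent of each other. IGF1R to INSR, the balance of the IGF and insulin receptors, was 0.558, 0.505 and 0.484 across the controls and 0.373, 0.350 and 0.342 across the knockdown libraries. INSR was thus the more abundant receptor transcript in every library, and more so in sh-CLGN, by 0.54 on the log2 scale. IGF1R to IGF2R went the other way, from 0.184 ± 0.00632 to 0.249 ± 0.0108 (SD, n = 3), as IGF2R lost more than IGF1R.

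The ratio of IRS1 to IRS2 was 3.82, 4.41 and 4.98 for the controls and 2.92, 2.91 and 2.76 with the CLGN hairpin. IRS1 remained the more abundant adaptor transcript throughout. IGFBP1 to IGFBP2 had the largest difference of the 6, from 2.43, 2.94 and 3.26 in sh-NC to 0.871, 0.745 and 1.04 in sh-CLGN, or -1.70 on the log2 scale. IGFBP1 was the higher of the pair in all controls and in 1 of the 3 knockdown libraries. IGFBP2 to IGFBP4 went from 0.319 ± 0.00905 to 0.800 ± 0.0852, and IGFBP1 to IGFBP4 from 0.918 ± 0.150 to 0.699 ± 0.0414 (SD, n = 3).

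**Figure D3:**
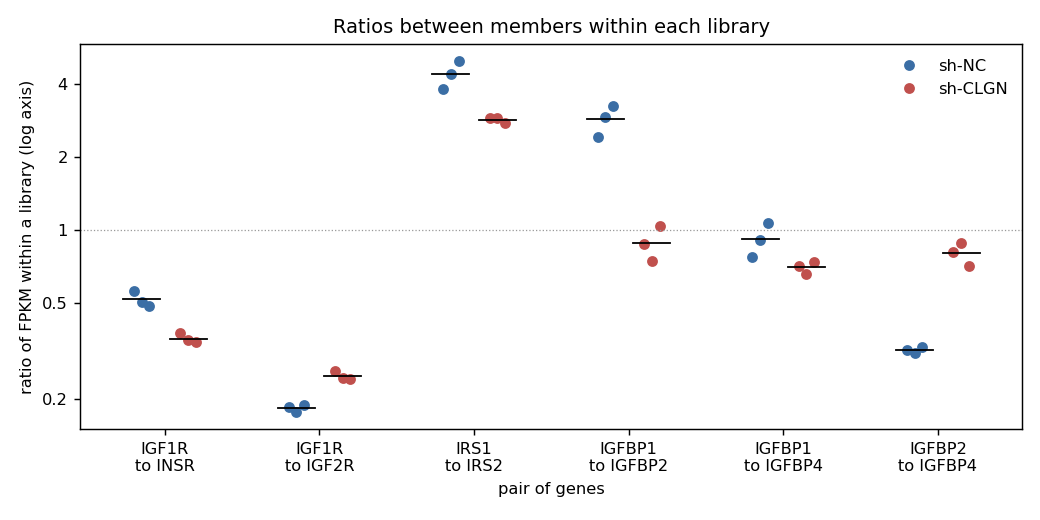
Ratio of FPKM of 2 members within the same library, on a log axis, with 3 points per group (blue sh-NC, red sh-CLGN) and a line at the mean. The groups do not overlap in any of the 6 pairs, and no share over other gene pairs was computed. IGFBP1 to IGFBP2 fell from a mean of 2.88 to 0.884.

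The other genes of the pathway, together with those of the 11p15.5 region, were taken as 7 lists, which held 116 genes besides the members. The 11p15.5 list was chosen by position and not by a role in signalling, and 7 of its genes passed the filter. Of the 89 that passed the filter, 25 rose and 38 fell by limma's adjusted p, a share of 70.8% called against 65.8% of all tested genes, and the median difference was -0.10 against -0.08. Of the called genes 39.7% were higher, which became 57.1% with read totals, 52.5% with TPM rescaling, 50.8% after GC correction and 50% with quantile normalization. Over all called genes the same shares were 40.7%, 59.2%, 52.2%, 48.9% and 48.2%, so the split of the lists stayed near the background. Past both thresholds, 3 of the 89 rose and 5 fell, where 3.09% of all tested genes were higher and 3.19% lower.

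Among the other ligands, binding proteins and their proteases, 4 of 13 genes passed the filter. IGFBP3, the main carrier of IGFs in serum, was at 6.04, 5.38 and 6.02 FPKM across the controls and 17.9, 18.6 and 18.2 FPKM across the knockdown libraries, a difference of 1.498 (SE 0.058, limma adjusted p = 1.59e-06). IGFBP6, which prefers IGF2, rose from 2.06 ± 0.107 to 5.53 ± 0.524 FPKM (SD, n = 3; limma adjusted p = 1.46e-05), from 39 to 140 reads per library. IGFBP7 overlapped between the groups (difference 0.27, adjusted p = 0.0701). STC2, a secreted inhibitor of the IGFBP-cleaving protease PAPPA, fell from 53.8 ± 0.588 to 16.2 ± 1.02 FPKM (SD, n = 3), a difference of -1.67 (SE 0.055, limma adjusted p = 1.00e-06).

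PAPPA, which cleaves IGFBP4 and so frees IGFs, is named after its values were seen, since it failed the filter. It had 7 reads in each sh-NC library and 84, 85 and 102 reads across the knockdown libraries. Its level was 0.0413 ± 0.00214 FPKM among controls and 0.474 ± 0.0631 FPKM after knockdown (SD, n = 3), a ratio of 11.5. Without the filter limma gave it a difference of 0.50 (SE 0.055, adjusted p = 0.00136). Set against the substrate IGFBP4 within each library, a comparison also chosen afterwards, STC2 went from 8.12 ± 1.06 to 2.33 ± 0.0791 and PAPPA from 0.00621 ± 0.000584 to 0.0679 ± 0.00531 (SD, n = 3). In both the groups did not overlap (two-sided exact permutation p = 0.1, the smallest possible). IGF1 had 0 to 8 reads per library and INSRR, an INSR relative, 0 to 1 reads, too few at this depth to show a difference.

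The transcripts of the 6 expressed IGFBPs, a sum also formed after their values were seen, added up to 27.8, 28.5 and 25.4 FPKM for the controls and 46.2, 46.9 and 46.9 FPKM with the CLGN hairpin. The groups did not overlap (two-sided exact permutation p = 0.1, the smallest possible). IGFBP3 went from 21.4% ± 2.46 to 39.0% ± 0.448 of the sum and IGFBP2 from 7.82% ± 0.425 to 11.9% ± 0.607 (SD, n = 3). IGFBP4 went from 24.6% ± 1.84 to 14.9% ± 0.854 and IGFBP1 from 22.4% ± 2.13 to 10.5% ± 1.20, although the level of IGFBP4 itself did not pass. The fibroblast and stellate markers rose in the same libraries, by the values given above, and their part in this sum was not tested.

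**Figure D4:**
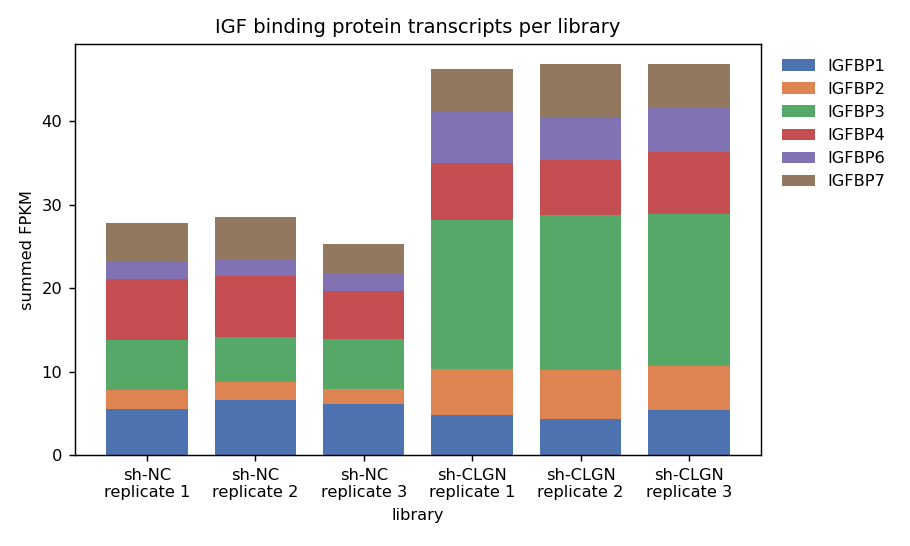
Summed FPKM of the 6 expressed IGF binding proteins in each library as stacked bars from 0, 1 colour per gene. The bars reach 25.4 to 28.5 FPKM in sh-NC and 46.2 to 46.9 FPKM in sh-CLGN, and IGFBP3 takes the largest share in every sh-CLGN library.

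At the level of the receptors and their partners, 3 of 19 tested genes rose and 11 fell by limma's adjusted p, 73.7% called against 65.8% of all tested genes, with a median difference of -0.57. FURIN, the protease that cuts the precursors of IGF1R and INSR, fell from 362 ± 27.7 to 152 ± 8.40 FPKM (SD, n = 3), a difference of -1.25 (SE 0.070, limma adjusted p = 5.70e-06). SHC1, which links the receptors to RAS, fell by 0.99 on the log2 scale, and the adaptor SH2B3 by 0.87. PTPN1, the phosphatase that switches off INSR, fell from 31.7 ± 0.104 to 20.1 ± 0.511 FPKM (limma adjusted p = 1.38e-05). SOCS3, an inhibitor of IRS signalling, fell from 4.93 ± 0.647 to 1.91 ± 0.205 FPKM (SD, n = 3; limma adjusted p = 6.25e-05).

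Downstream, the PI3K, AKT and mTOR list had 9 genes that rose and 13 that fell among 31 tested by limma's adjusted p, 71.0% called against the same background, with a median difference of -0.11. TRIB3, a pseudokinase that restrains AKT, fell from 121 ± 11.8 to 40.2 ± 0.959 FPKM (difference -1.56, SE 0.072, limma adjusted p = 2.74e-06). The translation inhibitors EIF4EBP2 and EIF4EBP1 fell by 0.82 and 0.77 on the log2 scale, and the S6 kinase RPS6KB2 by 0.53. In the RAS and ERK list 5 of 14 genes rose and 7 fell, 85.7% called against 65.8% of all tested genes. The GTPase NRAS rose by 0.72 and the kinase ARAF fell by 0.41 on the log2 scale, each without overlap, as for 70.2% of all tested genes.

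The FOXO list, transcription factors that insulin signalling holds out of the nucleus and genes they are known to regulate, had 5 of 11 tested genes higher and 1 lower, 54.5% called against 65.8% of all tested genes. For 2 of the 5, PDK4 and FOXO4, the direction was fixed by the filter, which they passed only through their sh-CLGN libraries. SESN3, a stress protein and FOXO target, rose from 2.76 ± 0.345 to 8.08 ± 0.727 FPKM (SD, n = 3), a difference of 1.27 (SE 0.089, limma adjusted p = 1.39e-05). TXNIP, an inhibitor of glucose uptake, moved the other way, from 87.3 ± 0.963 to 32.8 ± 0.726 FPKM (difference -1.38, SE 0.042, limma adjusted p = 7.36e-07). The differences for PDK4, an inhibitor of glucose oxidation, and FOXO4 were 0.87 and 0.82. The IGF2 mRNA binding proteins changed by small amounts, with IGF2BP2 lower by 0.28, IGF2BP1 lower by 0.16 and IGF2BP3 higher by 0.21 on the log2 scale, at limma adjusted p of 0.00132, 0.0336 and 0.0364, of which IGF2BP1 turned to 0.13 with quantile normalization and 0.031 with read totals.

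**Figure D5:**
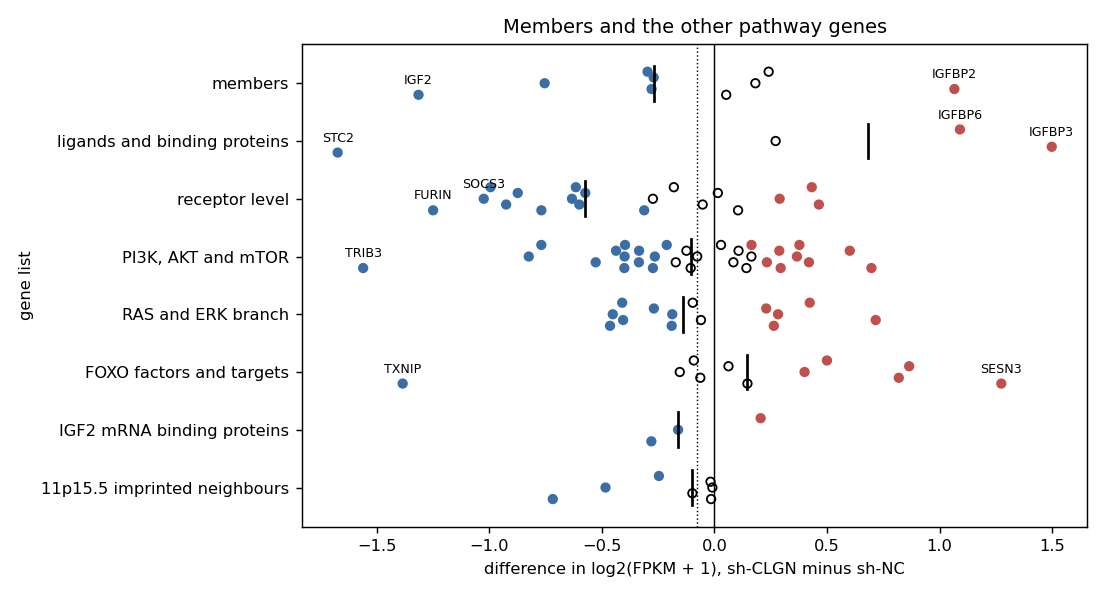
Difference in log2(FPKM + 1), sh-CLGN minus sh-NC, for each tested gene of the members and 7 pathway lists. Filled points passed at adjusted p (red higher, blue lower), open points did not, black ticks are list medians and the dotted line is the median of all tested genes. STC2 at -1.67 and IGFBP3 at 1.498 are the extremes, and names mark the genes past both thresholds.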

How the data were processed

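RNA was sequenced from 6 Hep-G2 libraries, 3 per group. The deposited values were FPKM, which the authors computed for every gene in a single table that also lists gene lengths. The submitters' notes name HISAT2 2.0.5, featureCounts and GRCh38, and strand setting and library sizes are not given in the sources used here. All 58735 gene positions equalled GENCODE 29. FPKM times length fell on whole steps within 0.01 of a read, which gave back the reads and the library sizes that the FPKM imply. Columns were matched to samples by name.

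Genes that reached 1 FPKM in 3 or more libraries were tested with limma 3.58.1 in R 4.3.3 (eBayes with trend, log2(FPKM + 1), no covariate), two-sided, with Benjamini-Hochberg adjustment over 13074 genes, and the procedure was checked on simulated data. Alternatives were no filter, a filter on a mean of 0.1 FPKM, the pseudocount 0.1, TPM, read totals, quantile and median-ratio scaling, GC correction (lowess span 0.3), voom, limma without trend, a replicate block, and each library left out.

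The members and lists were chosen with earlier results of these data known. Named genes were the members, the 4 genes of smallest adjusted p per list, those past both thresholds, the 3 most like IGF2, and its overlapping genes, of which some are not reported here. Intervals and floors cover counting error only. Python 3.11.15 drew the figures.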

Additional observations from a re-analysis of the deposited data

How the results depend on the processing

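Members called higher and lower numbered 1 and 5. They numbered 4 and 2 after GC correction, 3 and 2 with scaling by read totals, and 3 and 3 with TPM rescaling. Those called higher were 2 with quantile normalization and 3 with voom. Leaving out each library in turn gave 1 to 2 higher and 4 to 5 lower, with 1 member past both thresholds in each direction. The pathway genes called lower went from 38 to 24 with read totals, and leaving out a library gave 21 to 25 higher and 33 to 39 lower. IGFBP4 turned from 0.05 to -0.045 without sh-NC replicate 3, and leaving out each library gave -0.045 to 0.10. Differences of the other members kept their sign under all 17 alternatives. The changes of filter, limma without trend and the replicate block leave the difference itself unchanged, so in those the sign could not turn. The 6 ratios were rerun only with a pseudocount of 1, with same-numbered libraries paired, and without each library in turn. Their sign held in each, though pairing cannot change it. No ratio was corrected for GC content. Ranges on leaving out a library were -0.58 to -0.48 for IGF1R to INSR and 0.40 to 0.46 for IGF1R to IGF2R. They were -0.71 to -0.52 for IRS1 to IRS2 and -1.83 to -1.59 for IGFBP1 to IGFBP2. For IGFBP1 to IGFBP4 they were -0.50 to -0.26, and for IGFBP2 to IGFBP4 1.25 to 1.41. Read totals, used in place of the library sizes that the FPKM imply, moved the median of all tested genes by 0.16, and TPM by 0.11. Beyond these shifts the cause was not tested.

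No pairing by replicate number was seen, as deviations of same-numbered libraries had correlations of -0.02, -0.05 and -0.15. These rest on 3 libraries per group, and whether same-numbered libraries shared a batch was not tested. With the replicate block 2 members were called higher, INSR being added (0.18, adjusted p = 0.0418), and 5 lower, and 8038 genes in all against 8598. Depth limits IGFBP1, IGFBP6 and PAPPA, with at most 159 reads in any library. H19 had 0 reads, and the reason was not tested.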

Other observations

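KCNQ1OT1, the imprinted antisense RNA of the neighbouring KCNQ1 domain, failed the filter and was chosen after its values were seen. It was at 0.159, 0.151 and 0.197 FPKM for the controls and 0.460, 0.466 and 0.559 FPKM with the CLGN hairpin, from 202 to 828 reads per library. The groups did not overlap, at a ratio of means of 2.94, and without the filter limma gave a difference of 0.36 (SE 0.063, adjusted p = 0.00867). The protein-coding gene CDKN1C of the same imprinted domain was at 2.21 ± 0.187 FPKM in sh-NC and 2.18 ± 0.116 in sh-CLGN, and PHLDA2 at 5.41 ± 1.00 and 5.33 ± 0.925 (SD, n = 3). PAPPA2, the other IGFBP protease of this family, had 40 to 52 reads per control library and 85 to 115 per knockdown library, a ratio of mean FPKM of 1.85 (limma without the filter, adjusted p = 0.0511). PIK3R2, a regulatory subunit of PI3K, had 0 to 5 reads per library.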
